A study of Mus musculus with 12 samples.

Results

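Naive CD4 T cells were set against all 3 other sorted CD4 T cell subsets of the study together, to describe the genes on which they differ from every antigen-experienced or regulatory subset at once. A gene was taken as standing apart when its level in all 3 Naive libraries lay above, or below, its level in all 9 other libraries. Levels are CPM, read counts scaled to a common library size, with libraries made comparable by the TMM method. Of 13393 genes with enough reads to be tested, 2946 stood apart, 1271 of them higher in Naive (9.49%) and 1675 lower in Naive (12.5%). A further 111 entries above and 104 below also met the rule but had too few reads to be tested, and they are not described.

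All cells were freshly sorted from mixed spleen and lymph node tissue of untreated, wild-type C57BL/6 animals that carry a Foxp3-GFP reporter, so that FOXP3-expressing cells can be sorted by their fluorescence, and their T cell receptors were polyclonal. Naive cells were gated as CD44low, and that gate names no other marker. Anergic cells were CD44high FOXP3- CD73high FR4high NRP1+. Treg cells were FOXP3+ CD25+. Teff cells, the effector subset, were CD44high FOXP3- CD73low FR4low. Each subset had 3 libraries, and neither the age of the animals nor whether replicates were separate animals is given in the sources used here, so the tests measure only the spread between these libraries, which may be technical. The subsets were fixed by surface gates, and in such bulk samples a change in every cell cannot be told apart from a change in the share of cells that carry a transcript.

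Naive CD4 T cells circulate between blood and lymphoid organs in a resting state. They enter lymph nodes with the help of the chemokine receptor CCR7, leave along a sphingosine 1-phosphate gradient through S1PR1, and are held at rest by factors such as FOXO1, KLF2, TCF-1 and LEF1. After antigen recognition the cells divide, and their progeny carry other integrins, chemokine receptors and transcription factors. CD44, a receptor for hyaluronan, stays raised on such cells and is the usual marker of antigen experience.

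The 12 libraries held 6909035 to 9527897 counts. Naive libraries had a count in 18063 to 18687 entries and the 9 others in 19303 to 20012, and the 2 mitochondrial ribosomal RNAs took 10.1% to 10.6% of counts in Naive libraries against 11% to 16.2% in the others. Pearson's r of log2 CPM across genes was 0.889 to 0.929 between a Naive and another library, 0.929 to 0.952 between libraries of 2 different other subsets and 0.982 to 0.987 within a subset. On r across genes, which are not independent replicates, no pair with a Naive library exceeded a pair of 2 other subsets. The chi-square per degree of freedom between the counts of 2 libraries overlapped, at 25.3 to 67.2 and 19.5 to 51.3 for the same kinds of pair. What depth and the count of detected entries add to the results below was not tested. For the mitochondrial share, only a refit without the abundant non-coding entries, these 2 RNAs among them, was made.

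Over all tested genes, the edgeR quasi-likelihood test of Naive against the mean of the other 3 subsets called 2615 genes higher in Naive (19.5%) and 3047 lower (22.8%) at a Benjamini-Hochberg adjusted p under 0.05. Of the 1271 genes above, 1243 were among the calls, and 845 were also called against each of the other subsets alone. Of the 1675 below, 1656 and 1275 were. Because standing apart and the test use the same values, that overlap is a description. The genes below lay much farther away than the genes above. Their median log2 fold change was -1.2, a 2.3-fold difference, and 580 of them differed at least 4-fold. For the genes above the median was 0.533, a 1.45-fold difference, and 75 differed at least 4-fold. The lowest of the higher libraries was at least 1.5 times the highest of the lower ones for 656 genes below and 119 above. Together the genes above took 175452 to 182273 CPM in Naive libraries, against 109591 to 118384 in Anergic, 133603 to 134496 in Treg and 121961 to 127387 in Teff libraries. The genes below took 47773 to 48035 CPM in Naive libraries, against 92859 to 96957 in Anergic, 77942 to 78941 in Treg and 79690 to 81987 in Teff libraries. Treating the 9 other libraries as 1 group left 1303 calls higher and 1848 lower, since differences between those subsets then count as spread. Among the genes described here, the calls of App, Atp8b4, Bcl2, Bcl6, Cacna1d, Cd40lg, Cst3, Cxcr6, Dapk1, Eomes, Epas1, Foxp3, Ighm, Il4ra, Il7r, Itga1, Itgb3, Klf2, Klrb1c, Klrg1, Marcksl1, Mcm4, Prf1, Sdc4, Tcf7, Tomm70a and Tox were lost in that fit.

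**Figure D1:**
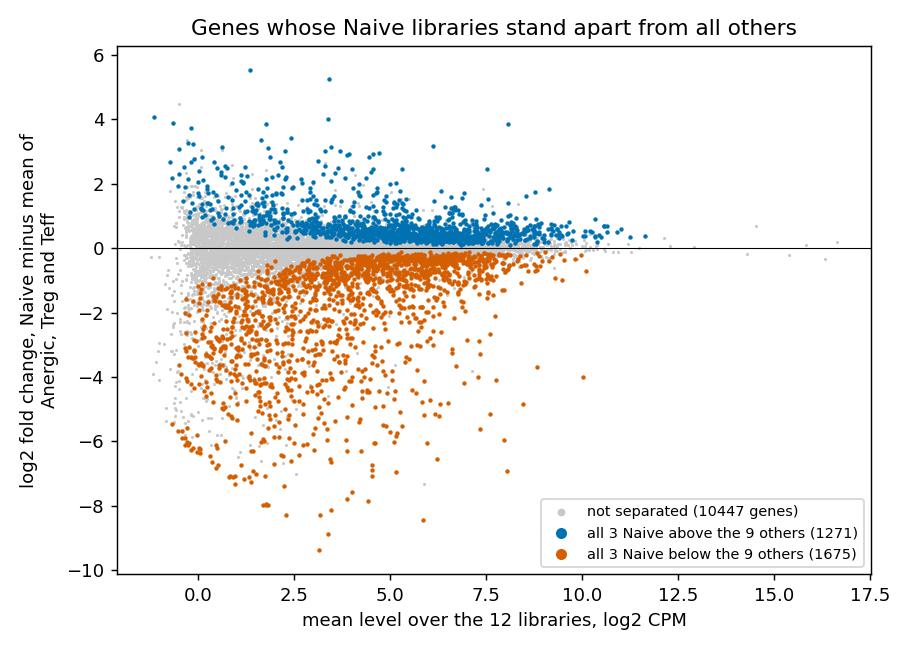
Each point is 1 of 13393 tested genes, with its mean level over the 12 libraries (log2 CPM) on the x axis and its log2 fold change, Naive minus the mean of Anergic, Treg and Teff, on the y axis. The 1271 blue genes stand above in all 3 Naive libraries and mostly lie close to the zero line, and the 1675 orange genes stand below and reach much larger differences.

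The genes of the sort markers served as the check of the labels. Cd44 stood at 30.8, 34.5 and 40.3 CPM in Naive, against 303, 328 and 369 in Anergic, 107, 119 and 123 in Treg and 286, 303 and 295 in Teff libraries. Every Naive library was below every other, with a log2 fold change of -2.68 ± 0.08 (SE). Fold changes here are Naive over the mean of the other 3 subsets on the log2 scale. Their SE was derived from the edgeR test, as the size of the log2 fold change over the square root of the F statistic. For genes with few Naive counts this SE may be too small. Averages are means ± SD over the 3 libraries of a subset. Nt5e, which encodes CD73, averaged 19.3 ± 1.92 CPM in Naive, against 256 ± 23.5 in Anergic, 184 ± 11.4 in Treg and 57.4 ± 4.01 in Teff. Izumo1r, which encodes FR4, averaged 49.6 ± 1.49 CPM in Naive, against 423 ± 4.57 in Anergic, 309 ± 18.7 in Treg and 73.7 ± 1.45 in Teff. Nrp1, which encodes the co-receptor neuropilin 1, averaged 3.46 ± 0.895 CPM in Naive, against 332 ± 34.9 in Anergic, 253 ± 13.9 in Treg and 62.6 ± 7.77 in Teff. All 3 were lowest in Naive libraries even though CD73 and FR4 were gated low on Teff cells. Il2ra, the gene of CD25, averaged 2.2 ± 0.738 CPM in Naive, against 15.2 ± 4.82 in Anergic, 708 ± 48.8 in Treg and 44.4 ± 5.42 in Teff, and it too stood apart. Foxp3, the regulatory lineage factor, averaged 1.35 ± 0.221 CPM in Naive, against 18.2 ± 2.81 in Anergic, 542 ± 16.2 in Treg and 0.733 ± 0.33 in Teff. It did not stand apart, because Teff libraries were lower than Naive ones and the call of lower in Naive rests on Treg and Anergic libraries.

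The largest differences above were in genes of varied function. Igfbp4, a secreted binder of insulin-like growth factors, stood at 788, 906 and 816 CPM in Naive, against 24.2, 30.9 and 27.2 in Anergic, 138, 156 and 173 in Treg and 29.9, 59.9 and 50.0 in Teff libraries. Its lowest Naive library had several times the level of its highest Treg library, with a log2 fold change of 3.84 ± 0.10. The gene lies at chr11:99041244-99054392 on the plus strand of GRCm38. Pdlim4, a cytoskeletal adaptor with PDZ and LIM domains, stood at 34.5, 32.5 and 43 CPM in Naive, against 0.117, 0.586 and 0.531 in Anergic, 0.302, 0.379 and 0.587 in Treg and 3.7, 5.07 and 6.23 in Teff libraries. Here Teff libraries kept a low level and Anergic and Treg libraries were near 0, with a log2 fold change of 5.24 ± 0.17. Vipr1, a receptor for vasoactive intestinal peptide, averaged 194 ± 7.26 CPM in Naive, against 17.8 ± 3.9 in Anergic, 10.2 ± 1.19 in Treg and 54.7 ± 2.88 in Teff. Dntt, the terminal transferase that adds bases to receptor joints in thymocytes, averaged 10.8 ± 1.69 CPM in Naive, against 0.284 ± 0.176 in Anergic, 1.7 ± 0.18 in Treg and 0.782 ± 0.445 in Teff. Naive libraries were highest in each, and the subset nearest to them was Teff for Vipr1 and Treg for Dntt. The others among the 10 largest were Ggt5 (a log2 fold change of 4.01 ± 0.14), Nacc2 (3.42 ± 0.21), Arhgap29 (3.14 ± 0.15), Cnn3 (3.02 ± 0.16), Epb41l1 (3.01 ± 0.17) and Slc16a5 (3.00 ± 0.15).

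Genes of naive homing and quiescence were mostly higher in Naive. This list and those below were chosen with earlier results of these data known, so their shares are a description and no test. The homing and quiescence list includes Igfbp4, already among the largest differences above. Of 30 listed, 28 were tested, 24 were called higher (85.7%) and 1 lower (3.57%), beside 19.5% and 22.8% of all tested genes. Of the 28, 18 stood above and 1 below, beside 9.49% and 12.5% of all tested genes. Their median log2 fold change was 0.81, beside -0.004 over all tested genes. Among the receptors that guide circulation, Ccr7 stood at 229.6, 233 and 224 CPM in Naive, against 68.3, 81.2 and 81.3 in Anergic, 111, 107 and 97.4 in Treg and 50.2, 65.5 and 63.4 in Teff libraries. All 9 other libraries lay well under the lowest Naive library, with a log2 fold change of 1.54 ± 0.06. S1pr1, the exit receptor, averaged 446 ± 27.2 CPM in Naive, against 174 ± 5.65 in Anergic, 259.9 ± 22.5 in Treg and 229 ± 8.1 in Teff. Pecam1, an adhesion molecule of leukocytes and endothelium, averaged 211 ± 6.34 CPM in Naive, against 136 ± 10.1 in Anergic, 158 ± 8.97 in Treg and 109 ± 0.93 in Teff and also stood above. Il7r, the survival cytokine receptor, was called higher but overlapped, since Naive libraries averaged 276 ± 24.9 CPM and Teff libraries 369.9 ± 29 CPM.

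Among the transcription factors of resting T cells, Lef1, a partner of beta-catenin, stood at 921, 879.9 and 945 CPM in Naive, against 202, 225 and 233 in Anergic, 313, 312 and 316 in Treg and 296, 293 and 309.8 in Teff libraries. The Naive libraries held more than 2 times the level of any other, with a log2 fold change of 1.74 ± 0.05. Satb1, an organiser of chromatin loops, stood at 1170, 1131 and 1103 CPM in Naive, against 111, 164 and 169 in Anergic, 450.0, 428 and 448 in Treg and 538, 482 and 506 in Teff libraries. Anergic libraries were by far the lowest, with a log2 fold change of 1.82 ± 0.07. Tcf7, the gene of TCF-1, averaged 1876 ± 35.9 CPM in Naive, against 1623 ± 69.2 in Anergic, 575 ± 28.7 in Treg and 1115 ± 52.2 in Teff. It stood above by a small margin over Anergic libraries and a large one over Treg libraries, with a log2 fold change of 0.89 ± 0.05. Bach2, a repressor of effector genes, averaged 176 ± 16.4 CPM in Naive, against 50.2 ± 1.59 in Anergic, 129 ± 5.12 in Treg and 60.3 ± 2.96 in Teff, and Foxo1 averaged 384 ± 20.3 CPM in Naive, against 177 ± 10.2 in Anergic, 337 ± 5.8 in Treg and 209 ± 4.99 in Teff. For both, Treg libraries were nearest to Naive. Klf2, which drives S1pr1, averaged 419 ± 30.5 CPM in Naive, against 178 ± 2.79 in Anergic, 331 ± 17.4 in Treg and 323 ± 23.4 in Teff. Btg2, Slfn2 and Id3 of the same list were not called in either direction. The exception was Ccr9, the gut-homing receptor, which stood below with 3.29 ± 1.41 CPM in Naive, against 8.7 ± 1.67 in Anergic, 14.6 ± 0.618 in Treg and 35.4 ± 2.11 in Teff, although 21.5% of its exon length is shared with another gene.

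Als2cl and Dapl1 of the same list differed by more than any of these factors. Als2cl, related to the guanine nucleotide exchange factor alsin, averaged 473 ± 40.1 CPM in Naive, against 71.4 ± 9.74 in Anergic, 74.5 ± 1.78 in Treg and 122 ± 15.8 in Teff. Dapl1, a death-associated protein-like gene, averaged 58.3 ± 5.24 CPM in Naive, against 7.08 ± 1.66 in Anergic, 4.14 ± 1.41 in Treg and 18.5 ± 5.04 in Teff. Actn1, a crosslinker of actin, averaged 749 ± 48 CPM in Naive, against 207 ± 47.9 in Anergic, 266 ± 9.19 in Treg and 269 ± 28.7 in Teff. Each of the 3 was over 2-fold higher in Naive than in the nearest other subset.

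**Figure D2:**
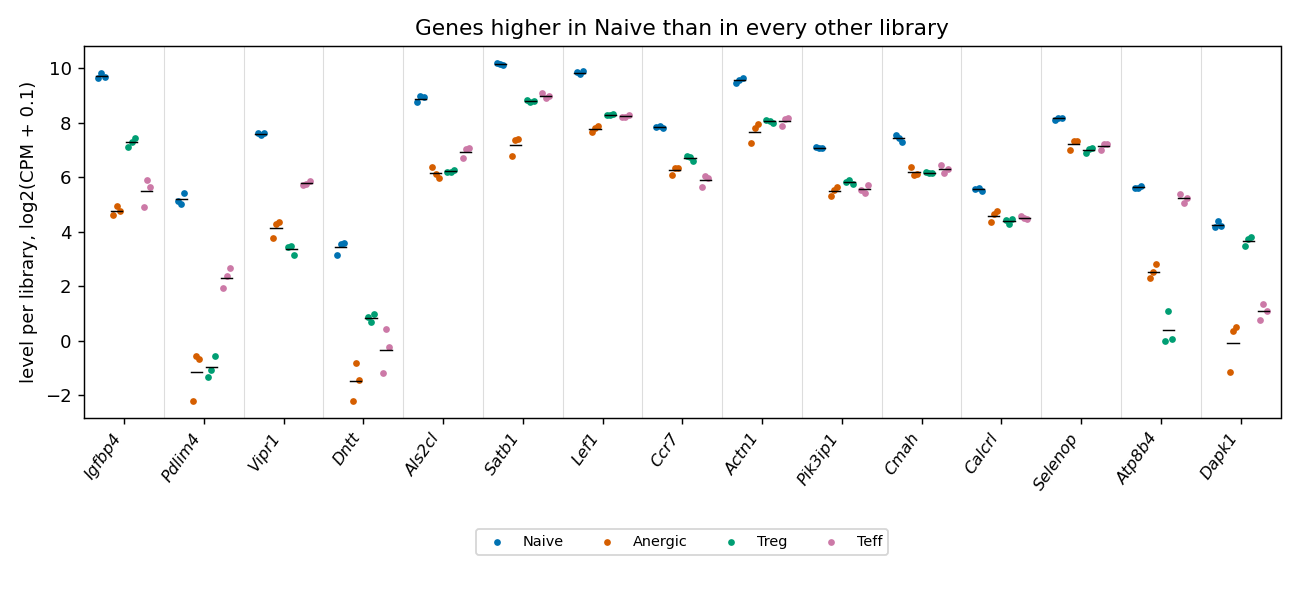
Levels of 15 genes that stand above in Naive, as log2(CPM + 0.1) on the y axis, with 3 points per subset (1 per library) and a bar at their mean. In Igfbp4 and Pdlim4 the subsets are far apart, in Cmah, Calcrl and Selenop the 3 other subsets lie together under Naive, and in Atp8b4 and Dapk1 1 other subset lies just under it.

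Ribosomal protein genes were higher in Naive by small and even amounts. Of 81 Rpl and Rps genes tested, 77 were called higher (95.1%) and 1 lower (1.23%), beside 19.5% and 22.8% of all tested genes. Of the 81, 56 stood above, beside 9.49% of all tested genes, and the median log2 fold change was 0.455. Under 3 other scalings 74 to 77 were called higher, so the direction did not turn. Of 96 tested processed pseudogenes of the same family 56 were called higher and 0 lower, and since pseudogenes are near copies of their parents, reads between them may be assigned to either. The share of mitochondrial ribosomal RNA, lower in Naive libraries, moved the opposite way. With 6 abundant non-coding entries removed, those RNAs among them, 77 of the 81 Rpl and Rps genes were called higher, with a median of 0.459. The part of that share was not tested further. Of 72 nuclear genes of oxidative phosphorylation 6 were called higher (8.33%) and 15 lower (20.8%, beside 22.8% of all tested genes), and of 11 mitochondrial protein genes 0 were called higher and 1 lower.

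Receptor signalling genes were divided, and genes of lipid synthesis were called higher more often than lower. Of 29 tested genes of T cell receptor signalling 10 were called higher (34.5%) and 11 lower (37.9%), beside 19.5% and 22.8% of all tested genes. Dgka, the diacylglycerol kinase that damps the signal, averaged 1177 ± 37.5 CPM in Naive, against 646 ± 30.2 in Anergic, 741 ± 32 in Treg and 636 ± 25.3 in Teff. Nfatc1, the inducible transcription factor, averaged 166 ± 12 CPM in Naive, against 677 ± 56.2 in Anergic, 223 ± 8.47 in Treg and 299.6 ± 18.1 in Teff, and Ptpn22, a phosphatase that restrains Lck, averaged 126 ± 1.35 CPM in Naive, against 326 ± 22.5 in Anergic, 141 ± 7.03 in Treg and 266 ± 25.7 in Teff. Dgka stood above and the other pair below, and for that pair Anergic libraries were farthest from Naive. Of 19 tested genes of cholesterol and fatty acid synthesis 9 were called higher (47.4%) and 1 lower (5.26%). Scd2, a desaturase, averaged 58.9 ± 3.16 CPM in Naive, against 123 ± 12.4 in Anergic, 97.1 ± 9.63 in Treg and 79.6 ± 6.47 in Teff and stood below.

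The lower genes were led by receptors and secreted factors. Ccr6, a receptor for mucosal chemokine CCL20, had 0 counts in the Naive libraries and 5.52, 9.61 and 8.5 CPM in Anergic, 19.9, 20.9 and 21.7 in Treg and 3.59, 10.0 and 6.11 in Teff libraries. With a floor of 3 counts for the Naive libraries together, it was at least 87.2-fold lower in Naive. Cxcr3, a receptor of type 1 inflammation, stood at 0, 0.371 and 0 CPM in Naive, against 92.4, 88.2 and 89.5 in Anergic, 14.7, 11.9 and 12.4 in Treg and 131, 131 and 122 in Teff libraries. With 3 Naive counts in all, the other libraries together had 554 (exact 95% interval 189 to 2686) times the Naive level. S100a6, a calcium-binding protein, stood at 0.138, 0.124 and 0.303 CPM in Naive, against 42.8, 30.0 and 35.3 in Anergic, 8.27, 12.3 and 14.6 in Treg and 40.4, 49.8 and 44 in Teff libraries. Naive libraries held 4 counts of it in all, with a log2 fold change of -7.07 ± 0.33. Fgl2, a secreted fibrinogen-like protein, stood at 0, 0.124 and 0 CPM in Naive, against 2.7, 4.1 and 3.32 in Anergic, 18.4, 22.9 and 24.2 in Treg and 35.3, 30.6 and 34.6 in Teff libraries. Naive libraries held 1 count, Anergic libraries were the lowest of the others, and the ratio of the others to Naive was 429 (exact 95% interval 76.9 to 16960). Floors and intervals cover counting error only.

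Ifng, the gene of interferon gamma, had 0 counts in Naive and averaged 16.1 ± 6.82 CPM in Anergic, 0.901 ± 0.393 in Treg and 25 ± 1.98 in Teff libraries. It was at least 101-fold lower in Naive, with 25.9% of its exon length shared with another gene. Penk, the precursor of enkephalins, averaged 38.3 ± 11.7 CPM in Anergic, 45.4 ± 4.15 in Treg and 1.62 ± 0.128 in Teff libraries, with 1 count in Naive. Itgae, the alpha E integrin, averaged 0.142 ± 0.138 CPM in Naive, against 7.66 ± 2.00 in Anergic, 126 ± 23.4 in Treg and 7.2 ± 3.77 in Teff. Fam160a1 and Klrb1c had 0 counts in Naive and were at least 89.3-fold and 106-fold lower, the first led by Anergic and Treg libraries and the second by Teff libraries. Klrb1c belongs to a family of near-identical receptors and is uncertain. Of the 1675 genes below, 49 had 0 counts in Naive. AC153498.1, an entry with no gene name, was also among the 10 farthest below.

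The promoters of 4 leading genes are shown, because letters of motifs named for T cell transcription factors were counted in the 250 bases before each gene's start. Sequences are from RefSeq, build GRCm38.p6, written 5′ to 3′ on the gene's strand, with matches to the searched letters in capitals. In Igfbp4 the capitals mark 1 match to the KLF letters CCNCACCC, read on the opposite strand, and in Pdlim4 they mark a pair of such matches that share 1 base, after 1 match to the NFAT letters TGGAAA, also read on the opposite strand. In S100a6 they mark 3 matches to the RUNX letters TGTGGT, the first of them on the opposite strand, and in Fgl2 1 match to the AP-1 letters TGANTCA, which starts 16 bases before the RefSeq start.
Igfbp4 promoter, chr11:99040994-99041243, plus strand: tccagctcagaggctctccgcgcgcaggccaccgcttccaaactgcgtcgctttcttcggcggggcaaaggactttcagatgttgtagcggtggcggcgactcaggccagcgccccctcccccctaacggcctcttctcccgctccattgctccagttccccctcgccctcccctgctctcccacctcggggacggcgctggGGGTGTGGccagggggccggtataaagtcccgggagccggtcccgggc
Pdlim4 promoter, chr11:54069018-54069267, minus strand: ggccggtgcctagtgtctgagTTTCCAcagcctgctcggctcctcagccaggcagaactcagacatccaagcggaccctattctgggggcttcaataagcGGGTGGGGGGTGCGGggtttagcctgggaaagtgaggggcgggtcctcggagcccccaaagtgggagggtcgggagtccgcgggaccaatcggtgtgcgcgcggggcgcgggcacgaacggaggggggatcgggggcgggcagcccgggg
S100a6 promoter, chr3:90612644-90612893, plus strand: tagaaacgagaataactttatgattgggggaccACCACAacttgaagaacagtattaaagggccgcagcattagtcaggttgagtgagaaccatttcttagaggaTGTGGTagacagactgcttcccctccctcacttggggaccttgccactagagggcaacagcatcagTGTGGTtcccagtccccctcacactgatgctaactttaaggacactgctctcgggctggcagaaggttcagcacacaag
Fgl2 promoter, chr5:21372423-21372672, plus strand: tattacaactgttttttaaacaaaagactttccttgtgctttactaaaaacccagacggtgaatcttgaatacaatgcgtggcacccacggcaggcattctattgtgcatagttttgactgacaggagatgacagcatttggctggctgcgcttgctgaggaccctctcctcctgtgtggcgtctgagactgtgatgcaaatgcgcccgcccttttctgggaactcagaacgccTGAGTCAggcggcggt
In the GENCODE annotation S100a6 starts at 90612882 and Fgl2 at 21372642, inside these windows. By that annotation the Fgl2 match lies inside the gene, in transcribed sequence, and the S100a6 matches lie before it.

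The same letters were counted on both strands in all promoters that could be matched. Only protein-coding genes outside chromosome 18 were used, a limit set after seeing the data, and a promoter was found for 894 of 1055 genes above (84.7%), 1220 of 1507 below (81%) and 6522 of 7832 not standing apart (83.3%). The AP-1 letters were in 3.47% of promoters above, 6.31% below and 3.34% of those not standing apart, beside 6.85% of all 27025 promoters of that length in the table. The AP-1 share below was over that of the other tested genes and under that of the whole table. RUNX letters were in 7.83% above, 12.8% below and 10.9% not standing apart (14.2% of the table). ETS letters, CCGGAAGT, were in 6.6% above, 4.75% below and 6.96% not standing apart (2.92% of the table). KLF letters were in 20.8% above, 20.5% below and 16.2% not standing apart (14.7% of the table). Below, the RUNX share was over and the ETS share under that of tested genes not standing apart, while against the whole table the RUNX share was under and the ETS share over. No test of these differences was made. Among the genes below by at least 4-fold, 8.73% had AP-1 letters, 15% RUNX letters and 1.5% ETS letters. The letters of TCF and LEF, CTTTGAT, were in 1.79% above, 1.72% below and 2.41% not standing apart. The other letters searched were those of NFAT, E protein (CAGCTG), FOXO (GTAAACA) and T-box (AGGTGTGA). In the same order, NFAT shares were 15.2%, 16.5% and 14.4%, and E protein shares 10.5%, 12.5% and 10.9%. FOXO shares were 3.02%, 2.79% and 1.93%, and T-box shares 0.447%, 0.984% and 0.705%. Base composition differed alongside: the ratio of observed to expected CpG was under 0.3 in 7.49% of promoters above, 16.3% below, 25.4% of those below by at least 4-fold and 8.91% of those not standing apart. The part of base composition in the motif shares was not tested, and a match is a run of letters, not a bound site.

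Chemokine receptors were among the lists farthest from Naive. Of 17 listed, 13 were tested, 11 were called lower (84.6%) and 1 higher (7.69%), beside 22.8% and 19.5% of all tested genes. Of the 13, 9 stood below, beside 12.5% of all tested genes. The median log2 fold change was -4.449, or -4.138 with genes at 0 Naive counts set at their bound. Ccr2, a receptor of monocyte chemokines, averaged 0.133 ± 0.138 CPM in Naive, against 5.75 ± 1.5 in Anergic, 14.3 ± 4.26 in Treg and 72.2 ± 0.39 in Teff. Ccr4, a receptor of skin homing, averaged 0.821 ± 0.117 CPM in Naive, against 29.4 ± 11.8 in Anergic, 41.1 ± 8.53 in Treg and 47.7 ± 9.65 in Teff. Cxcr5, which guides cells to B cell follicles, averaged 3.83 ± 1.3 CPM in Naive, against 129 ± 2.86 in Anergic, 45.1 ± 2.32 in Treg and 56.4 ± 3.4 in Teff. Naive libraries were near 0 for Ccr2 and Ccr4 and lowest for Cxcr5, while each of the other subsets held the receptor. Which subset held most differed: Teff for Ccr2 and Cxcr3, Treg for Ccr6 and Anergic for Cxcr5. Ccr7 was the exception above, and Cxcr4 was not called.

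Integrins and adhesion genes went both ways. Of 20 tested, 13 were called lower (65%) and 7 higher (35%), beside 22.8% and 19.5% of all tested genes. Of the 20, 11 stood below and 3 above, beside 12.5% and 9.49% of all tested genes. Itgb1, the shared beta 1 chain, stood at 36.9, 35.1 and 38.2 CPM in Naive, against 863, 812 and 909 in Anergic, 162, 175 and 187 in Treg and 717, 758 and 709 in Teff libraries. Treg libraries were the nearest to Naive and still several-fold higher, with a log2 fold change of -3.70 ± 0.07. Itgal, the alpha chain of LFA-1, averaged 388 ± 25.1 CPM in Naive, against 1080 ± 58.2 in Anergic, 470.4 ± 22.9 in Treg and 885 ± 36.8 in Teff, and Itga4, the alpha 4 chain, averaged 367 ± 24.5 CPM in Naive, against 916 ± 86.4 in Anergic, 493 ± 16.1 in Treg and 739.6 ± 122 in Teff. Both stood below with Treg libraries nearest. Itgb8, whose product activates latent TGF-beta, averaged 0.183 ± 0.161 CPM in Naive, against 59.4 ± 15.9 in Anergic, 36.3 ± 1.87 in Treg and 1.04 ± 0.563 in Teff, and Itga1, a collagen receptor chain, averaged 0.0505 ± 0.0874 CPM in Naive, against 0.774 ± 0.293 in Anergic, 0.505 ± 0.221 in Treg and 25 ± 10.2 in Teff. Teff libraries were nearest to Naive for Itgb8 and farthest from it for Itga1. Above stood Itgb3, the beta 3 chain, with 169.5 ± 7.58 CPM in Naive, against 24.4 ± 6.87 in Anergic, 53.9 ± 4.4 in Treg and 139 ± 7.97 in Teff, together with Pecam1 and Icam2.

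S100 proteins, annexins, galectins and cytoskeletal genes were mostly lower in Naive. Of 27 listed, 24 were tested, 17 were called lower (70.8%) and 2 higher (8.33%). Of the 24, 14 stood below, beside 12.5% of all tested genes. Over all tested genes the shares called were 22.8% and 19.5%. Ahnak, a very large membrane scaffold, averaged 80.2 ± 1.88 CPM in Naive, against 1612 ± 150.3 in Anergic, 785 ± 48.2 in Treg and 1662 ± 117 in Teff. Anxa2, a partner of S100a10 at membranes, averaged 2.3 ± 0.528 CPM in Naive, against 44.7 ± 3.89 in Anergic, 16.1 ± 2.4 in Treg and 49 ± 0.93 in Teff. Myo1f, an unconventional myosin of leukocytes, averaged 0.779 ± 0.115 CPM in Naive, against 63.4 ± 5.57 in Anergic, 32.6 ± 1.75 in Treg and 200.4 ± 11.8 in Teff. Each differed from the nearest other subset by far more than the spread of the replicates. S100a4 had 0 counts in Naive and was at least 31.1-fold lower, with 51.7% of its exon length shared with another gene. Tmsb10, an actin-binding peptide, stood above with 579 ± 25 CPM in Naive, against 351 ± 42.3 in Anergic, 435 ± 16.3 in Treg and 469.6 ± 56 in Teff.

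Cytokine receptors were divided. Of 26 tested, 14 were called lower (53.8%) and 9 higher (34.6%), beside 22.8% and 19.5% of all tested genes. Il2rb, the signalling chain for interleukins 2 and 15, stood at 19, 13.8 and 14.7 CPM in Naive, against 306, 298 and 302 in Anergic, 566, 546 and 552 in Treg and 544, 542 and 542 in Teff libraries. All 9 other libraries held a high level, with a log2 fold change of -4.83 ± 0.08. Il9r, the interleukin 9 receptor, averaged 0.234 ± 0.0965 CPM in Naive, against 17.4 ± 3.06 in Anergic, 3.95 ± 1.33 in Treg and 17 ± 1.35 in Teff, and Il1rl1, the receptor of interleukin 33, averaged 0.0505 ± 0.0874 CPM in Naive, against 1.19 ± 0.262 in Anergic, 11 ± 1.95 in Treg and 3.43 ± 0.405 in Teff. Il18rap, a chain of the interleukin 18 receptor, averaged 0.766 ± 0.22 CPM in Naive, against 11.8 ± 2.04 in Anergic, 6.24 ± 0.995 in Treg and 118 ± 15.7 in Teff. Of this list 5 receptors stood above, beside 9.49% of all tested genes. Tgfbr3, a co-receptor of TGF-beta, averaged 157 ± 6.02 CPM in Naive, against 82 ± 8.33 in Anergic, 20.6 ± 2.63 in Treg and 58.4 ± 3.96 in Teff. Ifngr2, the second chain of the interferon gamma receptor, averaged 46.9 ± 0.517 CPM in Naive, against 9.52 ± 0.596 in Anergic, 34 ± 3.85 in Treg and 8.87 ± 1.1 in Teff, and Il6ra averaged 292 ± 12.5 CPM in Naive, against 175 ± 9.19 in Anergic, 219 ± 13.8 in Treg and 141 ± 4.23 in Teff. Il4ra was called higher, but at 327 ± 17.3 CPM in Naive and 291 ± 20.1 in Treg the libraries overlapped.

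Costimulatory and inhibitory receptors were lower in Naive almost throughout. Of 26 listed, 25 were tested, 22 were called lower (88%) and 1 higher (4%). Of the 25, 14 stood below and 0 above, beside 12.5% and 9.49% of all tested genes. Over all tested genes the shares called were 22.8% and 19.5%. Tigit, an inhibitory receptor, stood at 0.413, 0.618 and 0.909 CPM in Naive, against 101, 63.4 and 71.7 in Anergic, 40.0, 52.7 and 50.3 in Treg and 13.8, 14 and 14.6 in Teff libraries. Anergic libraries were highest and Teff libraries lowest of the others, with a log2 fold change of -5.84 ± 0.26. Pdcd1, the gene of PD-1, averaged 3.84 ± 0.718 CPM in Naive, against 126 ± 14.3 in Anergic, 28.5 ± 3.55 in Treg and 21 ± 0.763 in Teff. Ctla4, the inhibitory counterpart of CD28, averaged 1.25 ± 0.599 CPM in Naive, against 15.6 ± 7.83 in Anergic, 27 ± 2.51 in Treg and 5.28 ± 0.365 in Teff, and Icos, a costimulatory receptor, averaged 4.41 ± 1.35 CPM in Naive, against 33.9 ± 6.53 in Anergic, 16.1 ± 2.93 in Treg and 20.1 ± 3.1 in Teff. Lag3 was called lower but did not stand apart, since 1 Teff library fell among the Naive ones. Cd160, a receptor also found on cytotoxic cells, averaged 0.605 ± 0.547 CPM in Naive, against 9.6 ± 1.84 in Anergic, 5.36 ± 0.629 in Treg and 41.1 ± 5.16 in Teff. Klrg1, a marker of late effector cells, had 0 counts in Naive and was at least 25.8-fold lower, with Treg libraries the highest of the others at 9.57 ± 4.49 CPM. Cd40lg, a costimulatory ligand, was the exception. It was called higher against the mean of the others, with 110.0 ± 11.2 CPM in Naive, against 136 ± 0.702 in Anergic, 18.3 ± 1.27 in Treg and 151 ± 2.88 in Teff, and only Treg libraries were under Naive.

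Transcription regulators of antigen-experienced cells were lower in Naive as well. Of 32 listed, 31 were tested, 27 were called lower (87.1%) and 4 higher (12.9%). Of the 31, 19 stood below and 1 above, beside 12.5% and 9.49% of all tested genes. Over all tested genes the shares called were 22.8% and 19.5%. Ikzf2, the gene of Helios, stood at 5.37, 2.84 and 4.24 CPM in Naive, against 458, 322 and 347 in Anergic, 524, 528 and 539 in Treg and 92.3, 79.9 and 79.2 in Teff libraries. Even the lowest Teff library held over 10 times the highest Naive one, with a log2 fold change of -5.96 ± 0.15. Bhlhe40, a factor of cytokine production, averaged 2.48 ± 0.439 CPM in Naive, against 135 ± 45.5 in Anergic, 51.1 ± 3.85 in Treg and 100.4 ± 10.8 in Teff. Maf, a factor of helper and regulatory cells, averaged 14.8 ± 0.661 CPM in Naive, against 470.4 ± 57 in Anergic, 159 ± 9.59 in Treg and 221 ± 10.1 in Teff. Zbtb32, a zinc finger repressor, averaged 0.0871 ± 0.0757 CPM in Naive, against 10.3 ± 2.29 in Anergic, 1.72 ± 0.357 in Treg and 4.96 ± 1.21 in Teff. The Anergic mean was the highest for these 3. Tbx21, the gene of T-bet, averaged 0.632 ± 0.845 CPM in Naive, against 32.4 ± 5.44 in Anergic, 3.59 ± 0.975 in Treg and 117 ± 1.88 in Teff, with Treg libraries nearest to Naive. Batf, a partner of AP-1 and IRF4, averaged 17.9 ± 1.65 CPM in Naive, against 61 ± 5.52 in Anergic, 37.6 ± 8.38 in Treg and 31.7 ± 2.16 in Teff, and Gata3 stood at 66, 65.4 and 66.2 CPM in Naive, against 164, 143 and 162 in Anergic, 136, 138 and 134 in Treg and 144, 139.9 and 123 in Teff libraries. For Gata3 the 9 other libraries lay close together, with a log2 fold change of -1.11 ± 0.06. The exception above was Epas1, the gene of HIF-2 alpha, with 26.8 ± 1.77 CPM in Naive, against 15.7 ± 8.07 in Anergic, 3.05 ± 0.694 in Treg and 21.2 ± 1.15 in Teff. Zbtb16, Bcl6, Tox and Eomes were called lower but overlapped, because 1 or more of the other subsets lay near Naive.

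Secreted and cytotoxic genes were mostly lower in Naive or not detected there. Of 26 listed, 21 were tested, 17 were called lower (81%) and 1 higher (4.76%), beside 22.8% and 19.5% of all tested genes. Of the 21, 9 stood below, beside 12.5% of all tested genes, and 6 had 0 counts in Naive. The median log2 fold change of the 21 was -3.808, or -3.667 with those 6 at their bound. Nkg7, a granule protein, averaged 0.133 ± 0.138 CPM in Naive, against 7.22 ± 1.06 in Anergic, 2.36 ± 0.692 in Treg and 48 ± 4.12 in Teff. Tnfsf11, the gene of RANKL, averaged 2.12 ± 0.304 CPM in Naive, against 64.9 ± 6.89 in Anergic, 15.6 ± 1.93 in Treg and 18.6 ± 0.702 in Teff. Ebi3 and Gzmb had 0 counts in Naive and were at least 32.9-fold and 21-fold lower. Prf1, the gene of perforin, went the other way and stood above, at 33.2, 31.4 and 33.6 CPM in Naive, against 0.704, 0.937 and 1.99 in Anergic, 8.37, 6.95 and 9.15 in Treg and 20.8, 22.8 and 21.4 in Teff libraries. Teff libraries were nearest and Anergic libraries near 0, so that the same list held genes lowest and highest in Naive.

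Most listed cell cycle genes and most histone genes were called lower in Naive. Of 30 tested cell cycle genes 18 were called lower (60%) and 3 higher (10%), beside 22.8% and 19.5% of all tested genes. Of the 30, 17 stood below, beside 12.5% of all tested genes. Mki67, the antigen of dividing cells, stood at 2.75, 4.2 and 3.33 CPM in Naive, against 84.2, 89.5 and 131 in Anergic, 63.3, 70.4 and 67.7 in Treg and 129.5, 142 and 159.9 in Teff libraries. The lowest of the other libraries held over 10 times the highest Naive one, with a log2 fold change of -4.84 ± 0.17. Top2a, the topoisomerase of mitosis, averaged 8.16 ± 1.25 CPM in Naive, against 67.6 ± 13.3 in Anergic, 50.5 ± 2.23 in Treg and 83.2 ± 10.0 in Teff, and Ccna2, the gene of cyclin A2, averaged 0.518 ± 0.429 CPM in Naive, against 4.41 ± 1.4 in Anergic, 5.64 ± 0.481 in Treg and 10.2 ± 1.23 in Teff. Of the listed replication genes Mcm3, Mcm5, Mcm6, Rrm1 and Rrm2 stood below, Mcm4 overlapped and was called lower, a call lost without Naive replicate 2, and Mcm2, Mcm7 and Pcna were not called. Of 55 histone genes tested 42 were called lower (76.4%, and 42 to 43 genes under the other scalings) and 1 higher (1.82%). Of the 55, 30 stood below, beside 12.5% of all tested genes, and the median log2 fold change was -1.21. Many histone genes are near-identical copies and share reads, so single members are uncertain. Of 25 kinesins 14 were called lower (56%) and 3 higher (12%), and of 17 myosins 8 (47.1%) and 4 (23.5%). Above stood Cdkn2d, an inhibitor of cyclin-dependent kinases, with 44.1 ± 3.07 CPM in Naive, against 19.8 ± 1.21 in Anergic, 25.5 ± 2.25 in Treg and 26.3 ± 3.31 in Teff.

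**Figure D3:**
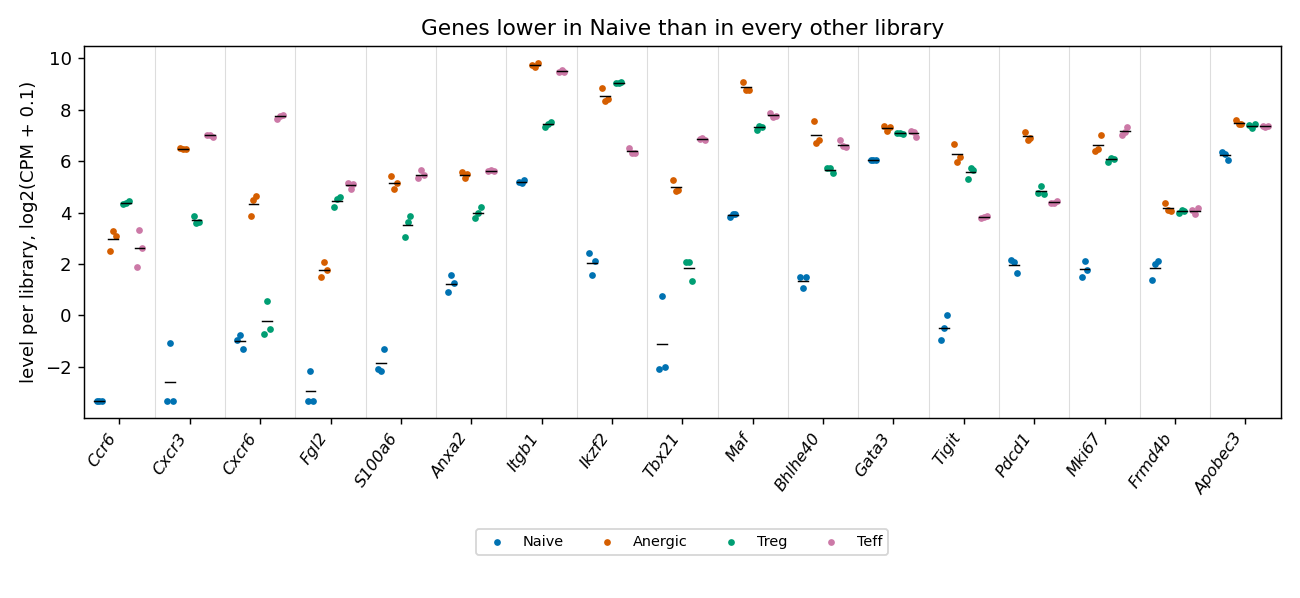
Levels of 17 genes that stand below in Naive, as log2(CPM + 0.1) on the y axis, with 3 points per subset (1 per library) and a bar at their mean, so that 0 counts lie at the foot of the plot. In Gata3, Frmd4b and Apobec3 the other subsets lie together. In Cxcr6 Treg libraries lie just over Naive, with very few reads in both, while Teff libraries reach 202 to 224 CPM.

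Genes of glycolysis, cell death and the GIMAP family were called lower more often than higher, and other metabolic and feedback genes went both ways. Over all tested genes 22.8% were called lower and 19.5% higher. The same shares were 55.6% and 5.56% for glycolysis, 66.7% and 19% for death pathways and 62.5% and 12.5% for GIMAP. They were 37.5% and 16.7% for interferon response, 47.4% and 36.8% for SOCS, DUSP and RGS, and 35% and 40% for solute carriers. Of 18 glycolysis genes 10 were called lower and 1 higher, led by Hk2, the inducible hexokinase, with 0.39 ± 0.311 CPM in Naive, against 6.00 ± 0.927 in Anergic, 8.56 ± 1.02 in Treg and 6.55 ± 0.433 in Teff. Of 21 genes of the BCL2 family and death pathways 14 were called lower and 4 higher. Of the 21, 10 stood below, beside 12.5% of all tested genes. Casp4, an inflammatory caspase, averaged 0.467 ± 0.559 CPM in Naive, against 46.4 ± 5.91 in Anergic, 11.7 ± 1.04 in Treg and 15.9 ± 3.41 in Teff, and Pmaip1, the gene of NOXA, averaged 1.86 ± 0.436 CPM in Naive, against 16.4 ± 4.56 in Anergic, 18 ± 0.581 in Treg and 9.78 ± 1.29 in Teff. Bcl2 itself was called higher but overlapped, at 139 ± 7.81 CPM in Naive against 61.9 ± 8.23 in Anergic, 219 ± 10.1 in Treg and 89.7 ± 17.1 in Teff libraries. The caspase and NOXA genes were thus low in Naive, while Bcl2 lay between the other subsets. Of 24 interferon response genes 9 were called lower and 4 higher, with Mx1, an antiviral GTPase, at 3.74 ± 0.263 CPM in Naive, against 16.5 ± 3.69 in Anergic, 10.7 ± 2.26 in Treg and 26.9 ± 4.99 in Teff. Of 19 SOCS, DUSP and RGS regulators 9 were called lower and 7 higher. Socs2, an inhibitor of cytokine signalling, averaged 0.0824 ± 0.143 CPM in Naive, against 3.59 ± 2.43 in Anergic, 28.7 ± 1.18 in Treg and 11.7 ± 1.71 in Teff, while Dusp10, a phosphatase of stress kinases, averaged 121 ± 12.1 CPM in Naive, against 48.5 ± 1.4 in Anergic, 78.1 ± 8.57 in Treg and 63 ± 3.77 in Teff. The first stood below with Treg farthest, and the second above with Treg nearest. Of 20 solute carriers and metabolic enzymes 7 were called lower and 8 higher, with Entpd1, the gene of CD39, at 0.541 ± 0.264 CPM in Naive, against 21.8 ± 3.34 in Anergic, 33.3 ± 1.77 in Treg and 18 ± 4.7 in Teff. Of 8 GIMAP GTPases 5 were called lower and 1 higher, with Gimap7 at 50.4 ± 5.48 CPM in Naive, against 114 ± 0.857 in Anergic, 133 ± 10.9 in Treg and 141 ± 7.76 in Teff.

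**Figure D4:**
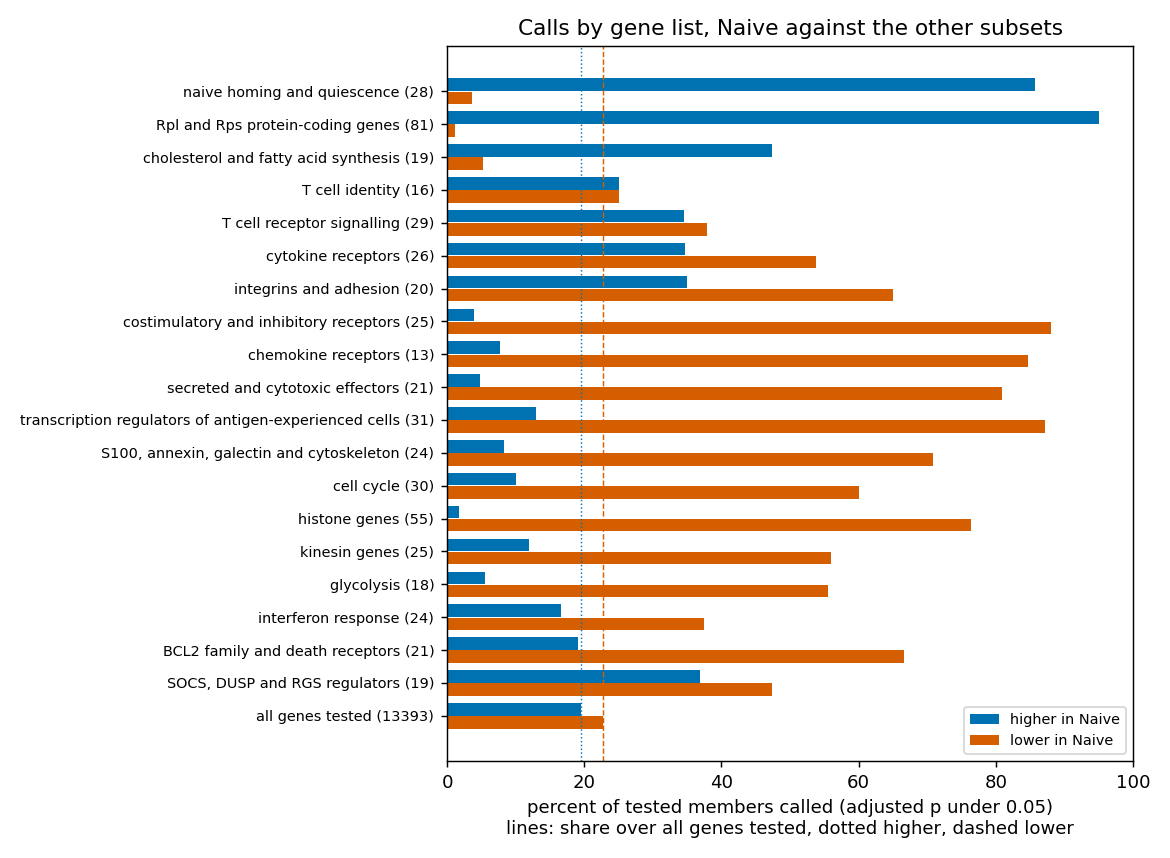
For 19 gene lists and all genes tested, bars give the percent of tested members (number in brackets) called higher in Naive (blue) or lower in Naive (orange), and the lines mark the shares over all 13393 genes, 19.5% and 22.8%. The blue bar is far the longer for homing and ribosomal protein genes, and the orange bar for chemokine receptors, costimulatory and inhibitory receptors, transcription regulators and histones. The lists were chosen with earlier results of these data known, so the bars are a description.

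How evenly the other 3 subsets share a level was read from the edgeR quasi-likelihood test that Anergic, Treg and Teff are equal. Its contrast leaves Naive out, although the fit used all 12 libraries. The 3 subsets differed for 618 of the 1271 genes above (48.6%) and 1076 of the 1675 below (64.2%). The share was 42.5% of all tested genes and 38.2% of those not standing apart. Standing apart was itself read from the levels of the same 9 libraries, so these shares are a description. The range of the 3 subset means, on the log2(CPM + 0.1) scale, was under 0.5 for 68.7% of genes above, 42% of genes below and 59.5% of all. It was over 2 for 51 genes above (4.01%) and 203 below (12.1%), beside 6.32% of all. The genes below also lay farther from Naive, and the part of that distance in their wider range was not tested. Treg was the subset nearest to Naive for 667 genes above and 762 below, Teff for 464 and 663, and Anergic for 140 and 250. These counts include genes not called different among the 3 subsets, where the nearest may rest on replicate spread. Where the 3 subsets differed by test, Treg was nearest for 377 and 509, Teff for 211 and 449 and Anergic for 30 and 118. Against Anergic, Treg and Teff in turn, the median log2 fold change of Naive was 0.649, 0.422 and 0.496 for the genes above and -1.33, -1.1 and -1.06 for the genes below. These 3 comparisons share the Naive libraries.

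**Figure D5:**
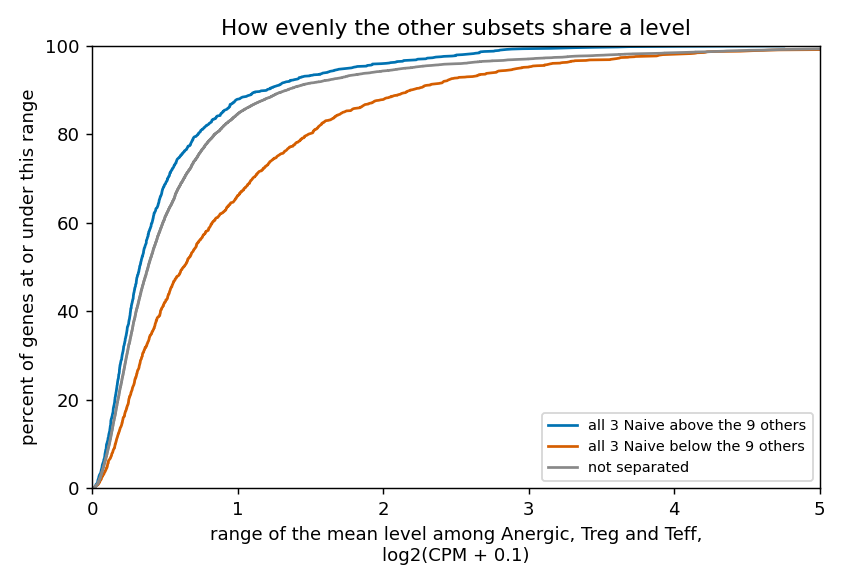
The range of the mean level among Anergic, Treg and Teff, on the log2(CPM + 0.1) scale, is on the x axis, and the percent of genes at or under it on the y axis, for genes that stand above in Naive (blue), below in Naive (orange) or not apart (grey). The orange curve for the 1675 genes below runs under the other curves over most of the x axis, with 42% at a range under 0.5 against 68.7% for the 1271 genes above.

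Some genes were close to a single level in every subset but Naive. Of the genes that stood apart by at least 2-fold with 10 CPM on the higher side, 118 above and 398 below, the 8 most even in each direction were taken. They were chosen by the range of their 3 other subset means, so no test of that range is given. Cmah, which makes the sialic acid Neu5Gc, stood at 189, 173 and 156 CPM in Naive, against 82.3, 67.1 and 69.7 in Anergic, 73.3, 71 and 71 in Treg and 88.2, 70.2 and 78.7 in Teff libraries. The 9 other libraries lay together well under the lowest Naive library. Calcrl, the receptor chain for calcitonin gene-related peptide and adrenomedullin, averaged 47 ± 1.8 CPM in Naive, against 24 ± 3.44 in Anergic, 21.1 ± 1.3 in Treg and 22.8 ± 0.987 in Teff. Selenop, a secreted selenium carrier, averaged 285 ± 7.2 CPM in Naive, against 149 ± 18.6 in Anergic, 128 ± 8.76 in Treg and 142 ± 14 in Teff, and Rgcc, a regulator of the cell cycle, averaged 47.9 ± 6.72 CPM in Naive, against 21.1 ± 3.00 in Anergic, 19.6 ± 7.57 in Treg and 24.1 ± 1.99 in Teff. Pik3ip1, an inhibitor of PI3 kinase, averaged 135 ± 1.67 CPM in Naive, against 45.2 ± 5.37 in Anergic, 56.3 ± 2.59 in Treg and 47 ± 5.26 in Teff, and Scml4 and Pced1b completed the set with log2 fold changes of 1.17 ± 0.06 and 1.25 ± 0.05. BC043934, a long non-coding RNA, averaged 27.6 ± 2.33 CPM in Naive, against 11.8 ± 1.43 in Anergic, 12.8 ± 1.08 in Treg and 13.4 ± 2.65 in Teff.

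In the other direction Frmd4b, a scaffold with a FERM domain, stood at 2.48, 3.96 and 4.24 CPM in Naive, against 20.8, 17 and 16.6 in Anergic, 15.7, 17.2 and 16.7 in Treg and 16.9, 15.5 and 17.9 in Teff libraries. All 9 libraries lay within a narrow band several-fold over Naive, with a log2 fold change of -2.26 ± 0.16. Apobec3, a cytidine deaminase that restricts retroviruses, averaged 75.1 ± 8.81 CPM in Naive, against 182 ± 11.3 in Anergic, 167 ± 8.3 in Treg and 164 ± 2.44 in Teff. Gem, a small GTPase induced by mitogens, averaged 2.41 ± 0.0679 CPM in Naive, against 17.4 ± 1.98 in Anergic, 15.3 ± 2.38 in Treg and 16.5 ± 1.51 in Teff, and Aim2, a sensor of cytosolic DNA, averaged 11.4 ± 2.13 CPM in Naive, against 28.5 ± 3.48 in Anergic, 24.7 ± 3.22 in Treg and 28.4 ± 2.84 in Teff. Slc4a7, a bicarbonate transporter, averaged 30.4 ± 3.6 CPM in Naive, against 92.7 ± 11.8 in Anergic, 82.6 ± 5.9 in Treg and 92.9 ± 16.1 in Teff, and Dip2a and Mthfs stood below, with log2 fold changes of -1.27 ± 0.15 and -1.09 ± 0.17. Gata3, given above, was the eighth.

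Others stood apart with very uneven levels in the other subsets, and these were chosen for the width of the range of those subset means. In some of them 1 or more of the other subsets lay near Naive. Atp8b4, a lipid flippase, stood at 48.6, 48.8 and 51.2 CPM in Naive, against 4.81, 5.62 and 6.91 in Anergic, 0.907, 2.02 and 0.939 in Treg and 41.4, 33.5 and 37.1 in Teff libraries. Teff libraries were just under Naive and Treg libraries near 0. Dapk1, a calmodulin-regulated death kinase, averaged 19.1 ± 1.58 CPM in Naive, against 0.951 ± 0.524 in Anergic, 12.7 ± 1.45 in Treg and 2.04 ± 0.427 in Teff, with Treg libraries nearest. App, the amyloid precursor protein, averaged 49.8 ± 2.74 CPM in Naive, against 15.1 ± 4.52 in Anergic, 1.94 ± 0.641 in Treg and 26.3 ± 3.47 in Teff, and Lypd6b averaged 22.3 ± 1.75 CPM in Naive, against 6.32 ± 2.63 in Anergic, 0.835 ± 0.0932 in Treg and 10.1 ± 0.919 in Teff. Cxcr6, a receptor of liver and lung residence, stood at 0.413, 0.495 and 0.303 CPM in Naive, against 14.7, 22.1 and 24.8 in Anergic, 0.504, 1.39 and 0.587 in Treg and 202, 216 and 224 in Teff libraries. Its lowest Treg library, at 0.504 CPM, was barely over its highest Naive library, at 0.495 CPM. That gap rests on very few reads, while the Teff libraries of Cxcr6 were far higher. Sdc4, a heparan sulfate proteoglycan, averaged 0.0505 ± 0.0874 CPM in Naive, against 1.22 ± 0.293 in Anergic, 39 ± 5.33 in Treg and 0.531 ± 0.0922 in Teff, and Cacna1d, a calcium channel subunit, averaged 0.427 ± 0.413 CPM in Naive, against 74.9 ± 17.7 in Anergic, 1.48 ± 0.556 in Treg and 2.81 ± 0.546 in Teff. Treg libraries alone were high for Sdc4 and Anergic libraries alone for Cacna1d.

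At the edge of the rule, the libraries were the same at 3 digits. Just inside stood Zkscan1, a zinc finger gene, at 74.7, 72.7 and 75.9 CPM in Naive with the highest other library at 72.7, and Ergic2, a gene of the secretory pathway, at 33.7, 30.7 and 27.9 CPM with the lowest other library at 33.7. Just outside stood Tomm70a, of the mitochondrial import machinery, at 83.8, 84 and 87.7 CPM with the highest other library at 83.8, and Marcksl1, an actin-linked kinase substrate, at 9.49, 7.05 and 6.66 CPM with the lowest other library at 9.49. The call of Ergic2 was lost without Naive replicate 2 or 3, that of Tomm70a without Naive replicate 3 and with total counts as the scale, and Zkscan1 was not called. Among all tested genes, 1372 called higher and 1391 called lower did not stand apart.

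By annotation, 1079 of the genes above and 1546 below were protein coding, 10.1% and 14.5% of 10651 tested. Of 830 processed pseudogenes 72 stood above (8.67%) and 20 below (2.41%), and of 259 lincRNAs 19 (7.34%) and 23 (8.88%). Over all tested genes 9.49% stood above and 12.5% below. Of 62 T cell receptor variable segments 6 stood above (9.68%, beside 9.49% of all tested genes) and 0 below (beside 12.5%). Of 280 zinc finger genes 45 were called higher (16.1%) and 36 lower (12.9%), beside 19.5% and 22.8% of all tested genes. Exons overlapped another gene over more than 10% of their length in 179 genes above and 219 below. Among the genes named, the shared part was 13.7% for Lef1, 15.5% for Als2cl, 17.7% for Cnn3, 15.4% for Selenop, 13.9% for Klrb1c, 14.3% for Penk, 23.4% for Ebi3 and 31.5% for Foxp3. For these the reads may come from either gene, and the strand setting of the counting is not given in the sources used here.

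Markers of other cells differed in level between subsets. T cell identity genes were held by all, with 4 of 16 tested called higher (25%) and 4 lower (25%), beside 19.5% and 22.8% of all tested genes. The myeloid list had 5 of 14 members tested and summed to 27.1 to 28.9 CPM in Naive against 31.3 to 39 CPM in the other libraries, most of it Cst3, with S100a8 and Clec9a at 0 in Naive. Of that list 1 gene was called higher and 3 lower, and the call of Cst3 was lost without Naive replicate 1 or 2. Lyz2, the lysozyme of macrophages, stood below with 0.706 ± 0.358 CPM in Naive, against 3.37 ± 0.0462 in Anergic, 2.74 ± 1.47 in Treg and 5.64 ± 0.463 in Teff. Itgam, the alpha M integrin, stood above with 2.35 ± 0.593 CPM in Naive, against 0.0781 ± 0.135 in Anergic, 0.58 ± 0.157 in Treg and 0.734 ± 0.454 in Teff, but 68.7% of its exon length is shared with another gene. The plasma cell list summed to 31.3 to 33.6 CPM in Naive against 42.1 to 52.6 CPM in the others, most of it Xbp1, and Jchain, which joins antibody chains, averaged 0.738 ± 0.449 CPM in Naive, against 4.07 ± 1.82 in Anergic, 3.62 ± 1.34 in Treg and 4.7 ± 1.66 in Teff. The NK and innate-like list had 8 of 11 members tested and summed to 12.7 to 13.6 CPM in Naive, against 46.5 to 57.1 in Anergic, 7.97 to 10.4 in Treg and 209 to 272 in Teff libraries. Ifng, Cxcr3, Cxcr6, Tbx21, Nkg7 and Klrb1c, described above, were likewise highest in Teff libraries. The B cell list had 5 of 11 tested and summed to 198 to 227 CPM in Naive, against 223 to 286 in Anergic, 413 to 506 in Treg and 181 to 197 in Teff libraries, nearly all of it Ighm, whose call was lost without Naive replicate 1. Cd22 of that list stood below with 0.101 ± 0.175 CPM in Naive, against 27.8 ± 1.5 in Anergic, 2.87 ± 0.775 in Treg and 12.5 ± 2.99 in Teff. Cd8b1 stood above at 15.2 ± 2.21 CPM in Naive, against 5.04 ± 0.534 in Anergic, 10.1 ± 1.15 in Treg and 4.09 ± 0.867 in Teff, and Cd8a was too low to test. Of the erythroid and platelet list 0 of 8 members were tested. The part of such cells in the genes named was not tested.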

How the data were processed

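Total RNA of 12 sorted samples was extracted with QIAGEN RNeasy kits and sequenced from Takara SMARTer Stranded Total RNA-seq Pico v2 libraries, per the labels' protocols. The authors trimmed reads with Trimmomatic, aligned them with HISAT2 and counted them with featureCounts, per the series' design text, which also names edgeR, and the submitters' processing notes add GRCm38 and deepTools 3.5.1.0.1. The deposited table holds raw whole-number read counts per gene and library, with no normalization. Neither the annotation nor the strand option used in counting is given in the sources used here. Gene positions are from GENCODE on GRCm38, in which 53710 of 54532 entries (98.5%) matched 1 gene, and 23 entries with counts had date-like names.

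Counts were filtered with edgeR's filterByExpr, which left 13393 genes, scaled by TMM and fitted over all 4 subsets by the quasi-likelihood method (edgeR 4.0.16, R 4.3.3). Naive was tested against the mean of the other 3 subsets, and those 3 against each other, with p-values adjusted over all tested genes by the Benjamini-Hochberg method at a threshold of 0.05. Standing apart was read from TMM-scaled CPM of tested genes. Ranges between subsets used log2(CPM + 0.1). Library totals set the precision, and a gene with 0 counts in Naive was set against a floor of 3 counts.

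The members and gene lists were chosen with earlier results of these data known. Genes were named by rule. The rule took the sort markers, the 10 highest and 10 lowest fold changes among genes with 10 CPM on the higher side, the 8 most even and 5 least even genes per direction, genes next to the limit of the rule, and up to 3 members per direction of each list. Other list members, and the 4 printed promoters, were chosen after their values were seen. On simulated counts for 13393 genes the Naive test found 99% of 100 genes changed 2-fold and 100% of 100 changed 4-fold, with 10 false calls. The simulation gave all genes the same spread between replicates and the other 3 subsets equal means. Only genes with ample mean counts were changed. It therefore does not cover genes with few counts, or genes that differ among Anergic, Treg and Teff. Alternatives tried were other scalings, filters and tools (DESeq2 1.42.0, limma 3.58.1 with voom), the 9 other libraries as 1 group, a wider margin, a replicate block and leaving out each library.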

Additional observations from a re-analysis of the deposited data

How the results depend on the processing

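Treating the 9 other libraries as 1 group moved the genes called higher in Naive to 1303 and those called lower to 1848, against 2615 and 3047, since differences between those subsets then count as spread. Asking for a margin of 1.5 times left 119 genes above and 656 below, against 1271 and 1675, which follows from the stricter rule. Leaving out each library in turn gave 2154 to 2659 genes higher, 2642 to 3108 lower, 1316 to 1718 above, 1723 to 2004 below and 1620 to 1953 of those standing apart that differed among Anergic, Treg and Teff, against 1694; with fewer libraries more genes stand apart by construction. Under the other scalings, filters and tools every one of these counts stayed within 1.5 times of its value above. The lowest were 2121 higher and 908 above with total counts in place of TMM, and 2515 lower and 1362 below with a 5 CPM filter. With a replicate block, 2806 genes were called higher, 3227 lower and 1802 differed among the 3 subsets. By the rule used, the replicate numbers were not taken to pair the libraries, since 4 of 18 same-number correlations of deviations were over 0.1. As a hint from the data, 17 of the 18 were over 0, 27 of 36 different-number ones were under 0, and 10 of 12 libraries correlated best with their own number. Deviations from a subset mean sum to 0 within the subset, so these counts depend on each other and are not separate evidence. Of 192 genes recomputed, those of the naming rule and others the text names, 183 were called. Over the alternatives 154 of the 192 stayed on their side of the threshold, 37 lost a call in at least 1, of which 34 did so with the 9 other libraries as 1 group, 1 gained a call (without Anergic replicate 3) and 0 reversed. Depth limits the lowest genes, above all those with 0 to 3 Naive counts.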

Other observations

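Of 259 tested lincRNAs 19 stood above (7.34%) and 23 below (8.88%), beside 9.49% and 12.5% of all tested genes, and 46 were called higher in Naive (17.8%) and 53 lower (20.5%), beside 19.5% and 22.8%. The transcripts named here were chosen after their values were seen. Mir17hg, the host transcript of the miR-17 cluster, averaged 11 ± 1.51 CPM in Naive, against 3.5 ± 0.35 in Anergic, 7.21 ± 1.53 in Treg and 4.9 ± 2.18 in Teff. Snhg1, a host of small nucleolar RNAs, averaged 59 ± 8.49 CPM in Naive, against 29.7 ± 5.34 in Anergic, 37.9 ± 3.16 in Treg and 33 ± 2.67 in Teff, and Snhg12, another such host, averaged 29.3 ± 2.14 CPM in Naive, against 19.3 ± 1.08 in Anergic, 21.5 ± 1.84 in Treg and 17.4 ± 1.2 in Teff. All 3 stood above, and Snhg8 and Snhg17 did too. AW112010, a transcript induced in activated T cells, averaged 19.6 ± 0.987 CPM in Naive, against 95.1 ± 3.12 in Anergic, 64.1 ± 0.91 in Treg and 97.1 ± 2.4 in Teff. AU020206 averaged 37.9 ± 2.22 CPM in Naive, against 206 ± 51.8 in Anergic, 94.1 ± 3.73 in Treg and 159 ± 22.7 in Teff, and Xist, which silences an X chromosome, averaged 731 ± 77.9 CPM in Naive, against 1489 ± 71.9 in Anergic, 1039 ± 38.8 in Treg and 1129 ± 136 in Teff. These 3 stood below, each with the Treg mean nearest to Naive. Igkc, an immunoglobulin light chain segment, stood below too, with 2.72 ± 1.23 CPM in Naive, against 17.7 ± 6.17 in Anergic, 18.4 ± 8.27 in Treg and 19.6 ± 6.16 in Teff, beside the plasma cell markers given above, and the part of antibody-forming cells in it was not tested.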
